A study of Homo sapiens with 6 samples.

Results

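The amino acid transporter genes of undifferentiated human embryonic stem cells (hESCs) were compared between WT cells and cells without S6K1, the ribosomal protein S6 kinase encoded by RPS6KB1. Members were chosen by symbol alone, as all genes of the families SLC1, SLC3, SLC6, SLC7, SLC36, SLC38 and SLC43, and the rule uses no measured value. The count table held 59 such genes among 61155 rows, and 39 of the 59 had enough counts to be tested, as did 19521 genes in all. The families are those of plasma membrane and lysosomal carriers of amino acids, but a few members carry related or other molecules, such as creatine, taurine, monoamines and, for SLC43A3, nucleobases.

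The samples were 3 WT and 3 S6K1-/- libraries of polyadenylated RNA from H7, an established hESC line grown without feeders. The S6K1-/- cells were made with CRISPR guides against exons 9 and 11 of RPS6KB1, delivered on a plasmid that also carries Cas9, and were expanded as a clone, so the comparison is of 1 knockout clone with its parent line and an effect of the clone and of the lost kinase cannot be told apart. Neither group received a further treatment. The sample labels also carried a time of week 5 and the word knockdown, whereas the extraction protocol and the methods describe undifferentiated knockout cells. Nothing in the sources used here says whether the 3 libraries of a group came from separate cultures, so the p-values measure only the spread between these libraries. In bulk RNA, fewer cells that express a gene and less of its RNA per cell cannot be told apart.

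Amino acids cross the plasma membrane on carriers with overlapping substrates. Members of SLC38 and SLC1 load cells with glutamine and other small neutral amino acids, often driven by sodium, and the heterodimers of the SLC3A2 heavy chain with a light chain such as SLC7A5 exchange these for leucine and other large neutral amino acids. Leucine and arginine inside the cell activate mTORC1, the kinase complex that phosphorylates S6K1, and SLC38A9 and SLC36A1 take part in that sensing at the lysosome. Several transporter genes are known targets of ATF4, the factor that cells induce when amino acids run short, through the C/EBP-ATF response element.

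Library totals ranged from 21896698 to 24473013 counts. RPS6KB1, the targeted gene, was read 831, 791 and 777 times in WT and 464, 464 and 438 times in S6K1-/- libraries, a log2 fold change of -0.75 ± 0.06 (SE, adjusted p = 2.52e-07 by edgeR's quasi-likelihood test), so its RNA was reduced and not absent. All 14 pluripotency markers examined were expressed, with a sum of 8813 to 9015 CPM (counts scaled to a common library size) in WT and 8207 to 8336 CPM in S6K1-/- libraries. DNMT3B and EPCAM were lower at an adjusted p under 0.001, 14.3% of the list beside 3.96% of all genes tested. At an adjusted p under 0.05, 4 were lower and 1, ZFP42, was higher. POU5F1, SOX2 and NANOG were at -0.036, -0.044 and 0.054 on the log2 scale. The summed markers of amnion and trophoblast stayed at or below 10.3 CPM and those of mesendoderm and endoderm at or below 22.0 CPM in all 6 libraries. Within these low lists GATA2 rose (log2 fold change 0.87, adjusted p = 6.39e-05), and KRT7 at -0.82 (adjusted p = 0.00103) and FOXA2 at -0.88 (adjusted p = 0.00108) came close to the threshold. The 6 mesenchyme markers summed to 79.4 to 82.4 CPM in WT and 21.7 to 25.2 CPM in S6K1-/- libraries. Nearly all of this sum was COL1A1, the only member that could be tested. The others had at most 3 counts in any library. The part of these shifts in the transporter values was not tested.

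Of the 39 transporter genes tested, SLC7A3, SLC7A14 and SLC1A1 fell and SLC1A3 and SLC7A8 rose in the S6K1-/- libraries past an adjusted p of 0.001, the study's threshold. With each library left out in turn, SLC7A3 and SLC7A14 kept the call in all 6 fits, SLC1A3 in 2, and SLC1A1 and SLC7A8 in 1 each. The 3 that fell stand beside 2.54% of all genes tested that were called lower, and the 2 that rose beside 1.42% called higher. The genes called were 12.8% of the members tested, where 3.96% of all genes tested were called. An unadjusted p under 0.05 was found for 15 members (38.5%) and for 26.4% of all genes tested. At an adjusted p under 0.05 the counts were 4 lower, with SLC6A15 added, and 7 higher, with SLC7A5, SLC7A11, SLC6A6, SLC38A4 and SLC38A10 added, beside 8.31% and 5.47% of all genes tested. Of these 6 added genes only SLC7A5 stayed under 0.05 whichever library was left out. SLC6A15 was lost without WT replicate 3 (0.0547) and SLC38A4 without WT replicate 2 (0.0583) or S6K1-/- replicate 3 (0.0564). SLC7A11 was lost without WT replicates 1 or 2 or S6K1-/- replicate 1 (up to 0.108), SLC6A6 without WT replicate 2 or S6K1-/- replicates 1 or 2 (up to 0.0875), and SLC38A10 without WT replicate 3 or S6K1-/- replicates 1 or 2 (up to 0.0809). In CPM, 7 of the 39 members tested were lower and 9 higher in every S6K1-/- library than in any WT library, where 16.7% and 14.0% of all genes tested did so. Counts so small were not read as a property of the families.

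The changes went both ways. The members together took 0.337% to 0.351% of the counts of a WT library and 0.348% to 0.355% of those of an S6K1-/- library, ranges that overlap. Their summed level was 3472, 3358 and 3501 CPM in WT and 3592, 3549 and 3500 CPM in S6K1-/- libraries, where only the highest WT library reached the lowest S6K1-/- library. Their median log2 fold change was -0.05, with 23 below 0 and 16 above, and that of all genes tested was -0.002. The median size of the change, whatever its sign, was 0.15 for the members and 0.11 for all genes tested. Among the other 420 genes named SLC, 251 were tested, 6 were lower and 2 higher at the same threshold, and the median size of the change was 0.11. Of the 34 members without a call, 27 had a 95% interval that stayed within a 1.5-fold change in either direction.

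**Figure D1:**
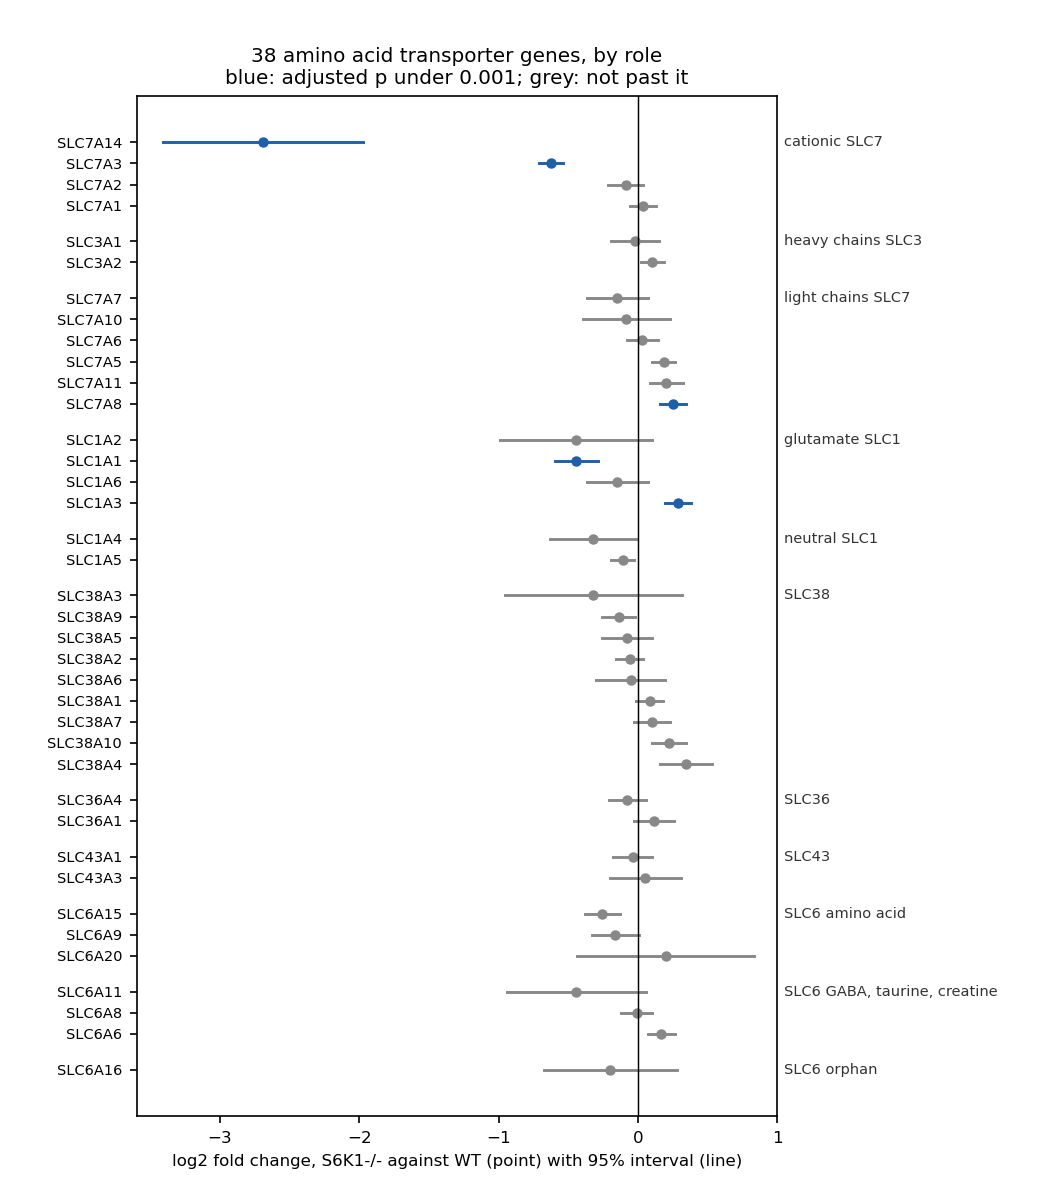
Log2 fold change of S6K1-/- against WT hESCs for 38 of the 39 transporter genes tested, grouped by role, with the point as the edgeR estimate and the line as its 95% interval. The 5 genes with an adjusted p under 0.001 are in blue, with SLC7A14 at -2.69 and SLC7A3 at -0.62 farthest to the left and SLC1A3 at 0.29 and SLC7A8 at 0.25 to the right.

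The levels spanned a wide range and a few genes made up most of it. Per kilobase of transcript, on the scale of CPM per kilobase, the WT order began with SLC3A2 at 132 ± 3.61 (SD, n = 3, as in all means here), SLC1A5 at 116 ± 2.29, SLC38A2 at 102 ± 4.75, SLC7A5 at 80.5 ± 0.112, SLC7A3 at 71.1 ± 2.53, SLC7A8 at 69.4 ± 0.434, SLC38A1 at 58.5 ± 3.22 and SLC6A6 at 44.7 ± 2.07. These 8 genes held 79.2% of the members' summed level per kilobase in WT. SLC7A3 and SLC7A8 were neighbours whose WT levels lay within the spread of SLC7A3, whereas the steps around them were larger than the SDs. In S6K1-/- cells SLC7A3 moved from rank 5 to rank 8, at 46.2 ± 0.692, and SLC7A8 from rank 6 to rank 5, at 82.8 ± 4.55. This order depends on the length used. Over all annotated exons instead of the MANE Select transcript, the same 8 genes led in WT, but SLC1A5 came first at 100, SLC3A2 was at 38.9 and rank 7, SLC7A8 at 49.1 was well below SLC7A3 at 70.2, and SLC1A3 moved from rank 10 to rank 20. Levels between genes carry a further error, since the aligner used by the authors does not split reads over splice junctions.

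The cationic amino acid transporters bring arginine and lysine into the cell. SLC7A3 (CAT-3; chromosome X, 70925579 to 70931125, minus strand, in GENCODE 44 on GRCh38) had 166, 155 and 157 CPM in the WT libraries and 102, 104 and 104 CPM in the S6K1-/- libraries, from 4034, 3810 and 3652 against 2387, 2496 and 2273 counts. Every S6K1-/- library was far below every WT library, and within each group the libraries were close. The level fell by 35.1%, a log2 fold change of -0.62 ± 0.04 (SE, 95% interval -0.71 to -0.54; adjusted p = 4.24e-08), and the call was kept under all 11 alternative fits tried.

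The related SLC7A1 (CAT-1), which is expressed in most cell types, had 150, 137 and 150 CPM in WT and 153, 150 and 145 CPM in S6K1-/- libraries. The groups overlapped, with a log2 fold change of 0.04 (95% interval -0.06 to 0.13; adjusted p = 0.641), an interval that excludes a change as large as that of SLC7A3. SLC7A2, the third cationic transporter tested, was at 58.9 ± 4.42 CPM in WT and 55.4 ± 3.27 CPM in S6K1-/- cells, and the groups overlapped (log2 fold change -0.09, adjusted p = 0.378).

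Since SLC7A3 was the most abundant of the 3 per kilobase, its fall lowered their summed level from 98.7 ± 3.74 to 73.8 ± 0.238 CPM per kilobase. SLC7A3 made up 72.2%, 72.9% and 71.1% of that sum in WT and 61.3%, 63.0% and 63.4% in S6K1-/- libraries. The ratio of SLC7A3 to SLC7A1 was 3.63, 3.70 and 3.43 in WT and 2.17, 2.28 and 2.36 in S6K1-/- libraries, with no overlap.

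SLC7A14 (chromosome 3, 170459548 to 170586075, minus strand), a relative of the cationic transporters with a less settled substrate, was near the lower limit of what these libraries resolve. Only 27, 28 and 28 reads were counted in WT and 2, 5 and 5 in S6K1-/- libraries. The 3 low libraries were all S6K1-/-, and the fitted level was 6.46-fold lower (95% interval 3.92 to 10.7; adjusted p = 5.23e-05). In CPM this is a fall from 1.15 ± 0.0493 to 0.175 ± 0.0781, far below the other members of the group that were tested. The gene passed the filter on low counts through its WT libraries alone, so its presence among the genes tested already depended on the group where it was high. The call held under the 10 alternatives in which the gene could be tested, and a minimum of 10 counts in every library removes it. The opposite strand holds SLC7A14-AS1, with 16 counts over all libraries. SLC7A4, the remaining member of this group, had at most 5 counts in any library and was not tested.

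The heavy chain SLC3A2 (4F2hc, CD98) brings the light chains to the cell surface. It had 256, 248 and 242 CPM in WT and 260, 273 and 269 CPM in S6K1-/- libraries. The S6K1-/- libraries were all slightly higher, but the log2 fold change of 0.105 ± 0.040 (SE) did not pass (adjusted p = 0.0994). SLC3A1, the heavy chain of the cystine carrier of kidney and gut, was at 18.1 ± 0.636 and 17.8 ± 2.10 CPM, and its groups overlapped (adjusted p = 0.916).

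Among the light chains, SLC7A8 (LAT2; chromosome 14, 23125295 to 23183674, minus strand), a carrier of large and small neutral amino acids, had 293, 293 and 296 CPM in WT and 360, 364 and 328 CPM in S6K1-/- libraries. The third S6K1-/- library lay below the other two but above all WT libraries. It also had the lowest mitochondrial share of counts, at 8.54% against 9.51% and 9.74% in the other S6K1-/- libraries and 8.63% to 8.78% in WT, and the part of this in the SLC7A8 value was not tested. The level rose by 19.3%, a log2 fold change of 0.25 ± 0.04 (SE, 95% interval 0.16 to 0.35), at an adjusted p of 9.87e-04, just under the threshold. Without a single library the adjusted p ranged from 2.56e-04 to 0.00898, and only the fit without S6K1-/- replicate 3 kept the call.

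SLC7A5 (LAT1), the main leucine carrier of proliferating cells, had 367, 366 and 367 CPM in WT and 430, 415 and 407 CPM in S6K1-/- libraries. The groups did not overlap, and the log2 fold change was 0.19 ± 0.04 (SE, 95% interval 0.10 to 0.27; adjusted p = 0.00423), past 0.05 and not past 0.001. With DESeq2's Wald test its adjusted p was 1.36e-05. A pseudogene copy, SLC7A5P1, had 17, 21 and 17 counts in WT and 36, 31 and 24 in S6K1-/- libraries, and how the counting split reads between the copies is uncertain.

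SLC7A11 (xCT), which exchanges glutamate for cystine, was at 48.0, 49.1 and 54.6 CPM in WT and at 61.0, 58.0 and 55.8 CPM in S6K1-/- libraries. The highest WT library came close to the lowest S6K1-/- library, and the adjusted p was 0.0200 for a log2 fold change of 0.205, so it did not pass 0.001. The other light chains tested were SLC7A6 at 0.03, SLC7A7 at -0.15 and SLC7A10 at -0.08 on the log2 scale, with adjusted p-values of 0.732, 0.394 and 0.782. Genes on the opposite strand overlap SLC3A1 (PREPL, 10452 counts in all), SLC7A6 (SLC7A6OS, 6888), SLC7A10 (LRP3, 6430) and SLC7A11 (SLC7A11-AS1, 787), which makes these values less certain.

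The light chains tested summed to 170 ± 1.06 CPM per kilobase in WT and 195 ± 7.03 in S6K1-/- cells. Their make-up moved little. SLC7A5 held 47.4 ± 0.246% of the sum in WT and 47.0 ± 0.836% in S6K1-/- cells, and SLC7A8 held 40.8 ± 0.0251% and 42.4 ± 1.02%. Small as these shifts were, the shares of SLC7A6, SLC7A7 and SLC7A8 did not overlap between the groups. The ratio of SLC7A5 to SLC3A2 was 0.593, 0.611 and 0.627 in WT and 0.683, 0.629 and 0.626 in S6K1-/- libraries, and these overlapped. Which of both genes was higher turned with the length used, since over all annotated exons the ratio was 1.98 ± 0.0546 in WT and 2.09 ± 0.104 in S6K1-/- cells.

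The glutamate transporters of SLC1 take up glutamate and aspartate with sodium, and 2 of the 4 tested moved in opposite directions. SLC1A3 (GLAST, EAAT1; chromosome 5, 36596588 to 36688334, plus strand), best known from astrocytes and radial glia, had 74.4, 69.2 and 75.3 CPM in WT and 90.6, 88.2 and 88.2 CPM in S6K1-/- libraries. All S6K1-/- libraries were higher, by 22.0% on average (log2 fold change 0.29 ± 0.04, SE, 95% interval 0.19 to 0.38; adjusted p = 3.12e-04). The adjusted p rose to between 0.00105 and 0.00302 when WT replicate 1 or any 1 of the S6K1-/- libraries was left out. The 5 neuroectoderm markers did not move one way. PAX6 rose (log2 fold change 0.76, adjusted p = 2.69e-04), while SOX1 was at 1.29 (adjusted p = 0.0174), MAP2 at -0.85 (adjusted p = 0.00735), NES at -0.06 and TUBB3 at 0.26. Their sum, most of it NES, was 439 to 457 CPM in WT and 427 to 441 CPM in S6K1-/- libraries. The part of such cells in the SLC1A3 value was not tested.

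SLC1A1 (EAAC1, EAAT3; chromosome 9, 4490468 to 4587469, plus strand), the carrier of neurons and epithelia that also imports cysteine, had 16.7, 16.7 and 19.0 CPM in WT and 12.8, 13.2 and 12.6 CPM in S6K1-/- libraries. The groups were separate, and the level fell by 26.3% (log2 fold change -0.44 ± 0.07, SE, 95% interval -0.60 to -0.28; adjusted p = 6.96e-04). With single libraries left out the adjusted p ranged from 8.30e-04 to 0.00722, and only the fit without WT replicate 2 kept the call. DESeq2's Wald test did not call it either. SPATA6L lies on the opposite strand over part of the gene, with 610 counts in all, and the strand setting of the counting is not given in the sources used here.

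The ratio of SLC1A3 to SLC1A1 per kilobase was 4.20, 3.91 and 3.74 in WT and 6.69, 6.28 and 6.61 in S6K1-/- libraries, without overlap. Over all annotated exons the ratio was 0.783 ± 0.0459 in WT and 1.30 ± 0.0427 in S6K1-/- cells, so it rose with either length, but which gene was higher in WT turned with it. Of the other glutamate carriers, SLC1A6 was at 8.32 ± 1.07 and 7.51 ± 0.355 CPM and SLC1A2 (GLT-1) at 1.12 ± 0.0959 and 0.832 ± 0.276 CPM, with adjusted p-values of 0.400 and 0.300. SLC1A7 had at most 1 count in any library.

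The neutral members of SLC1 exchange alanine, serine, cysteine and glutamine. SLC1A5 (ASCT2), a major glutamine carrier, had 341, 336 and 327 CPM in WT and 305, 316 and 310 CPM in S6K1-/- libraries. Every S6K1-/- library was lower, but the difference was small, with a log2 fold change of -0.11 ± 0.04 (SE, 95% interval -0.19 to -0.03), and it did not pass (adjusted p = 0.0777). SLC1A4 (ASCT1) was much less abundant, at 3.83 ± 0.328 and 3.06 ± 0.480 CPM (adjusted p = 0.174).

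Of the 9 SLC38 members tested, none passed 0.001. SLC38A1 (SNAT1), which takes up glutamine, had 472, 448 and 500 CPM in WT and 511, 492 and 502 CPM in S6K1-/- libraries. SLC38A2 (SNAT2), whose protein and RNA rise when amino acids are scarce, had 494, 463 and 507 CPM in WT and 472, 452 and 482 CPM in S6K1-/- libraries. Both genes overlapped between the groups, with log2 fold changes of 0.085 (95% interval -0.01 to 0.18; adjusted p = 0.253) and -0.06 (95% interval -0.15 to 0.04; adjusted p = 0.462).

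SLC38A9, the lysosomal arginine sensor upstream of mTORC1, had 26.1, 25.9 and 26.1 CPM in WT and 23.4, 23.7 and 23.9 CPM in S6K1-/- libraries. These groups were tight and separate, and the log2 fold change was -0.137 ± 0.055 (SE), with an adjusted p of 0.126. SLC38A4 was at 8.59, 7.69 and 9.30 CPM in WT and 10.6, 10.6 and 11.2 CPM in S6K1-/- libraries (log2 fold change 0.345, adjusted p = 0.0160). SLC38A10 was at 38.5 ± 2.55 and 45.0 ± 2.28 CPM (log2 fold change 0.23, adjusted p = 0.0173). SLC38A3, SLC38A5, SLC38A6 and SLC38A7 had adjusted p-values of 0.306 or more.

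SLC36A1 (PAT1), a proton-coupled carrier of the lysosome, was at 15.2, 14.0 and 15.2 CPM in WT and 15.9, 16.2 and 15.9 CPM in S6K1-/- libraries. All S6K1-/- libraries were slightly higher, with a log2 fold change of 0.115 and an adjusted p of 0.299. SLC36A4 was at 29.6 ± 1.69 and 28.1 ± 1.38 CPM (adjusted p = 0.483). SLC43A1 (LAT3), a carrier of leucine that needs no heavy chain, was at 24.0, 23.1 and 21.7 CPM in WT and 22.0, 21.4 and 23.8 CPM in S6K1-/- libraries, which overlapped (log2 fold change -0.04, adjusted p = 0.784). Its relative SLC43A2 (LAT4) had only 4, 7 and 4 counts in WT and 5, 4 and 4 in S6K1-/- libraries and was not tested. SLC43A3 was at 4.68 ± 0.471 and 4.85 ± 0.375 CPM (adjusted p = 0.832).

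Of the 19 SLC6 members, 8 were tested and none passed 0.001. The taurine transporter SLC6A6 was the most abundant, with 293, 276 and 302 CPM in WT and 332, 335 and 312 CPM in S6K1-/- libraries. Its groups did not overlap, and the log2 fold change was 0.169 ± 0.045 (SE, adjusted p = 0.0200). The lowest S6K1-/- library was again replicate 3, the one with the low mitochondrial share, and the part of this in the SLC6A6 value was not tested. GRIP2, with 2339 counts in all, overlaps it on the opposite strand. The creatine transporter SLC6A8 had 58.9, 65.3 and 58.9 CPM in WT and 62.5, 62.4 and 57.3 CPM in S6K1-/- libraries, a log2 fold change of -0.007 (95% interval -0.119 to 0.105, adjusted p = 0.955).

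The glycine transporter SLC6A9 (GLYT1) was at 22.5, 22.5 and 21.1 CPM in WT and 21.6, 20.4 and 17.1 CPM in S6K1-/- libraries, which overlapped (adjusted p = 0.218). SLC6A15, a carrier of branched-chain amino acids and proline, had 45.8, 48.4 and 52.1 CPM in WT and 42.9, 38.2 and 41.5 CPM in S6K1-/- libraries. All S6K1-/- libraries were lower, by a log2 fold change of -0.255 ± 0.059 (SE, adjusted p = 0.00831), past 0.05 and not past 0.001. The GABA carrier SLC6A11, the orphan SLC6A16 and SLC6A20 were at 0.538 to 2.02 CPM in WT, with adjusted p-values from 0.254 to 0.743.

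The remaining 20 members were too low to test. Apart from SLC6A12, none had more than 10 counts in any library, and SLC7A13 had 0 in all 6. The monoamine transporters SLC6A2, SLC6A3 and SLC6A4 were among them. SLC6A12, a betaine and GABA carrier, had 10, 17 and 21 counts in WT and 7, 4 and 3 in S6K1-/- libraries, so every S6K1-/- library was lower. It did not pass the filter on low counts, and a fit without that filter called it, with a log2 fold change of -1.69 and an adjusted p of 9.59e-04. That fit also gave the called genes far smaller adjusted p-values, such as 2.35e-06 for SLC1A1 against 6.96e-04 in the main fit. The value for SLC6A12 is therefore not comparable with those of the main fit.

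The sequence before the start site is shown for the called genes, since these are the members whose RNA moved. RefSeq windows on GRCh38.p14, of 250 bases before and 50 after a start site, matched 44 of the 59 members, with 66 windows, of which some belong to the same gene and overlap. SLC7A3 was not matched. The windows were searched on both strands for TGATGNAAN, the C/EBP-ATF response element, CACGTG, the E-box bound by MYC and TFE3 among others, and TGACNNNGC, the antioxidant response element. The 250 bases before the start are given below 5′ to 3′ on the gene's strand, with capitals for a match. For SLC1A3 the window is chr5:36596338-36596587 (plus strand), for SLC1A1 chr9:4490218-4490467 (plus), for SLC7A14 chr3:170586076-170586325 (minus), and for SLC7A8 chr14:23154394-23154643 (minus), an internal start that was the only SLC7A8 window with a match.
SLC1A3: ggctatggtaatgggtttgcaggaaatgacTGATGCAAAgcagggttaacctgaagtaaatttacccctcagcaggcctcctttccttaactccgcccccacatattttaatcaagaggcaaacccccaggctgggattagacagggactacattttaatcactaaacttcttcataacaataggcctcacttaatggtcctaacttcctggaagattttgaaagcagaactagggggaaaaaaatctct
SLC1A1: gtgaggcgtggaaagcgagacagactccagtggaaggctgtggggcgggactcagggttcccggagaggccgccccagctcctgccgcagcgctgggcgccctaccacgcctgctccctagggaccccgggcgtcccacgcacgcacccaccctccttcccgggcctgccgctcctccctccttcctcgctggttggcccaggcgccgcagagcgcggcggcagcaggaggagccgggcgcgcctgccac
SLC7A14: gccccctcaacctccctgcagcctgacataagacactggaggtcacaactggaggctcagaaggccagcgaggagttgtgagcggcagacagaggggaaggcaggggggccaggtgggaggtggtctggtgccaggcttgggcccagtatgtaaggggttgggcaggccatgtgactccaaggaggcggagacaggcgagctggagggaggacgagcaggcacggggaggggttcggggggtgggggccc
SLC7A8: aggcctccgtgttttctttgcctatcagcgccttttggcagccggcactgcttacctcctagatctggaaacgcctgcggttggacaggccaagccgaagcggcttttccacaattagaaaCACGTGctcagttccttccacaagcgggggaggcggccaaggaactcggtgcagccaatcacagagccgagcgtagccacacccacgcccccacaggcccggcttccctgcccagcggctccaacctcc

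SLC1A3 held TGATGCAAA beginning 220 bases before the start, and the SLC7A8 window held CACGTG 129 bases before the start. No match to the 3 motifs was found in the windows of SLC1A1 and SLC7A14 printed here. The 4 windows printed were 43.2% (SLC1A3), 74.4% (SLC1A1), 66.8% (SLC7A14) and 61.6% (SLC7A8) G and C. A second start of SLC1A3, farther into the gene, held TGACAAAGC 196 bases upstream.

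The C/EBP-ATF element occurred in 6 of 66 transporter windows (9.09%) and in 3.61% of all 35116 windows. Among tested genes it was in 12.2% of 49 transporter windows and in 2.00% of the windows of other genes. Beside SLC1A3 it was found as TGATGCAAA in SLC1A4, TGATGCAAG in SLC1A5, TGATGAAAA in SLC38A1, TGATGTAAG in SLC3A2 and TGATGAAAC in SLC7A1. These 6 genes did not move together. Their log2 fold changes were 0.29, -0.32, -0.11, 0.085, 0.105 and 0.04 in that order, and only SLC1A3 passed. The E-box was in 15.2% of transporter windows and 7.26% of all windows, in SLC7A5, SLC7A8 and SLC1A5 among others, and the antioxidant response element in 10.6% and 13.3%. Among tested genes these were 18.4% and 8.91% for the E-box and 14.3% and 14.2% for the antioxidant response element. A match describes the letters of the window and does not show binding.

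The genes beside the called transporters were examined for shared change. Within 1 Mb of the start of SLC7A3, 20 other genes were tested and none passed 0.001, and the nearest, TEX11 at 22.4 kb, had a log2 fold change of -0.57 with an adjusted p of 0.360. None of 10 genes near SLC1A1 and none of 11 near SLC1A3 passed. Of all genes tested 3.96% passed, so an absence of calls in windows this small does not show that a region was unchanged. Near SLC7A14, MECOM and TNIK were higher among 13 genes, opposite in sign to SLC7A14, and near SLC7A8, ABHD4 and JPH4 were lower and DHRS2 higher among 44.

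Other genes of amino acid handling were examined as lists. Among 19 further amino acid and peptide carriers tested, none passed 0.001 by edgeR's quasi-likelihood test and 5 (26.3%) had an unadjusted p under 0.05, where 26.4% of all genes tested did. SLC15A3, SLC17A6 and SLC25A13 were lower at an adjusted p under 0.05, and the median log2 fold change was -0.07. Of 16 amino acid sensing genes tested, such as the Ragulator and Rag GTPase genes, none passed, 3 (18.8%) had an unadjusted p under 0.05, and the median was 0.02. Of 18 genes of the integrated stress response and amino acid synthesis, VLDLR fell (log2 fold change -0.50, adjusted p = 4.65e-06), the only call (5.56% of the list, beside 3.96% of all genes tested), 5 (27.8%) had an unadjusted p under 0.05, and the median was 0.008. Within that list CEBPB was at 0.26 with an adjusted p of 0.0212. ASNS, which makes asparagine and is a classical ATF4 target, was at 0.40 with an adjusted p of 0.0210, and TRIB3, another ATF4 target, at -0.40 with an adjusted p of 0.00478.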

How the data were processed

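Polyadenylated RNA of 3 WT and 3 S6K1-/- H7 hESC libraries was sequenced as stranded paired-end reads. The submitters' processing notes name Trim Galore 0.6.5, Bowtie2 2.4.5, featureCounts and DESeq2 1.37.4, and the build GRCh38. The counts per gene were deposited by the authors as whole numbers without normalization. The annotation release and strand setting are not given in the sources used here. A deposited table of the authors' own comparison (fold changes and p-values) was not used, and no column of samples was left unmatched.

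Genes were kept with filterByExpr and tested for a genotype effect by the quasi-likelihood method of edgeR 4.0.16 in R 4.3.3, on TMM-normalized library sizes, with no other factor and with Benjamini-Hochberg adjustment over all 19521 genes tested. The common dispersion was 0.00216. CPM use TMM library sizes and levels per kilobase the length of the MANE Select transcript in GENCODE 44. On simulated data for this comparison, over 19217 genes, 152 of 194 genes changed by 1 on the log2 scale were called. Members follow from a rule on symbols, but that rule, the lists and the motifs were chosen with earlier results of these data known. Genes described in every library were all members past the threshold, the 8 highest levels per kilobase in WT, and members fixed by role. SLC38A4, SLC6A15 and SLC6A12 were added after their values were seen. One member tested and one overlapping gene are not reported here. Alternatives were the Wald test of DESeq2 1.42.0, its size factors within edgeR, other filters and thresholds, the replicate number as a block, and each library left out.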

Additional observations from a re-analysis of the deposited data

How the results depend on the processing

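The call of SLC7A3 held under all 11 alternatives and that of SLC7A14 under the 10 in which it could be tested. SLC7A14 passed the filter through its WT libraries alone, and at least 10 counts in every library removed it, so its calls are weaker support. SLC1A1 and SLC7A8 lost their calls under 7 of 11 each and SLC1A3 under 4 of 11. The number of transporters lower in S6K1-/- cells rose from 3 to 5 with no filter on low counts, which added SLC6A12 and SLC6A15. That fit also gave the genes called in the main fit smaller adjusted p-values. With a library left out the number lower lay between 2 and 3. The number higher fell from 2 to 1 with at least 10 counts in every library and rose to 7 at an adjusted p under 0.05. With a library left out it lay between 0 and 1: it was 0 when WT replicate 1 was dropped and when replicate 1 or 2 of S6K1-/- was, and 1 for any other. The replicate block gave 2 lower (SLC7A3, SLC7A14) and 1 higher (SLC1A3). Libraries with the same number did not deviate together (correlations 0.018, 0.002 and 0.032), so the numbers were not taken as pairs.

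The median log2 fold change of the members tested lay between -0.042 and -0.014 with a library left out. Signs turned only near 0: SLC6A8 was at 0.002 with DESeq2's Wald test, 0.046 without WT replicate 2 and 0.040 without S6K1-/- replicate 3, and with a library left out it ranged from -0.027 to 0.046. SLC7A1 was at -0.002 without WT replicate 2 (range -0.002 to 0.068) and SLC43A1 at 0.005 without WT replicate 1 (range -0.075 to 0.005). Of 197 values over 18 named genes, 172 kept direction and side of the threshold, 18 lost the call, 2 gained it, both for SLC7A5, and 5 changed sign. The cause was not tested. Levels per kilobase over all annotated exons, an alternative chosen after seeing the data, kept the same 8 genes at the top but not their order. SLC3A2 went from 132 to 38.9, the WT ratio of SLC7A5 to SLC3A2 from 0.610 to 1.98, that of SLC1A3 to SLC1A1 from 3.95 to 0.783, and the WT shares of SLC1A1 and SLC1A3 from 17.6% and 69.3% to 49.0% and 38.3%, while the ratio of SLC7A3 to SLC7A1 was 3.59 and 3.71. SEs of the members ranged from 0.038 to 0.337 on the log2 scale, so at low counts only large changes could be detected.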
